A study of Mus musculus with 3 samples.

Results

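The genes described here encode 9 proteins of neutrophil granules, and the question put to the data was how open their chromatin was in monocytes. They were taken as a list of gene names, with no measured value in the rule, though earlier results of these data were known when the list was made: Mpo, Elane, Prtn3 and Ctsg of the primary granules, Ltf, Camp, Ngp and Lcn2 of the specific granules, and Mmp9 of the gelatinase granules. All 9 were found among the 21851 genes with a protein-coding transcription start site (TSS) in the annotation. Chromatin accessibility had been measured by DNase-seq, in which the nuclease DNase I cuts open chromatin, so that accessible promoters and regulatory elements appear as peaks of cuts. The data formed 1 group of 3 libraries of primary monocytes from adult female mice, 2 months old, of the strain B6CASTF1/J, a first-generation hybrid of C57BL/6J and CAST/EiJ. Biological replicate numbers 1, 2 and 4 in the labels name the libraries, each with 1 technical replicate; all carry one donor identifier, and no treatment or allele is named. The labels do not tell whether separate animals were used, so each SD below (n = 3 libraries) measures a spread that may be technical. No neutrophil or progenitor sample was analysed here, and with 1 group no test between conditions could be made.

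Neutrophils store antimicrobial proteins in granules that are filled in sequence as the cells mature in the marrow. Primary granules form first, in promyelocytes, and hold myeloperoxidase and serine proteases; specific granules follow with lactoferrin and cathelicidin, and gelatinase granules come last. Monocytes share the granulocyte-monocyte progenitor with neutrophils, and some primary granule genes are active in that progenitor. PU.1, C/EBP factors, RUNX1 and MYB are the transcription factors best known for driving these genes.

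The promoters of 3 primary and all 4 specific granule genes are shown because the sequence comparison further on refers to the positions of their matches; Ltf holds matches of both kinds compared there. Each line gives the 250 bases that precede the most upstream protein-coding TSS in the mm10 reference (C57BL/6J), 5′ to 3′ on the strand of the gene. Capitals mark matches, on either strand, to the consensus of C/EBP (TTGCNNAA), of PU.1 and other ETS factors (AGGAANT), of RUNX (TGTGGTT) or of MYB (TAACNG).
Mpo promoter (chr11:87793331-87793580, plus strand): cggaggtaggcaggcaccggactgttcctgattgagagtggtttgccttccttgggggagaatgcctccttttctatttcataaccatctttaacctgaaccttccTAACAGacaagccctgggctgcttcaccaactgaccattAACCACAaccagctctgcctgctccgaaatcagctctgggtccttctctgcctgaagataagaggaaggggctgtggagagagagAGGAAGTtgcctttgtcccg
Elane promoter (chr10:79885997-79886246, plus strand): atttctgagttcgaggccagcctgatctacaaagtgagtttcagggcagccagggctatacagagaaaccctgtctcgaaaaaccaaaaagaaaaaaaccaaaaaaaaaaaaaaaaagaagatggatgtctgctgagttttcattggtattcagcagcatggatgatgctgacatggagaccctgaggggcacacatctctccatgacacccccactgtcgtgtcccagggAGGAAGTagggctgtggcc
Prtn3 promoter (chr10:79879364-79879613, plus strand): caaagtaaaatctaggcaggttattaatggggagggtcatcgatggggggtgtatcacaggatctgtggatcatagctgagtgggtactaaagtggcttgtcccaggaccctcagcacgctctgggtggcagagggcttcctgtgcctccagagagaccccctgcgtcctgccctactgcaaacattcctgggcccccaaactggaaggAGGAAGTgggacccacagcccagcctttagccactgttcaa
Ltf promoter (chr9:111019021-111019270, plus strand): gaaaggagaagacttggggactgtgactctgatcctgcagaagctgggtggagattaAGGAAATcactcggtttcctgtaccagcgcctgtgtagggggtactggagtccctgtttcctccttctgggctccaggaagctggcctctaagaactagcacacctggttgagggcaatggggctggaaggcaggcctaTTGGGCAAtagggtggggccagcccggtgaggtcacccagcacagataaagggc
Camp promoter (chr9:109849618-109849867, minus strand): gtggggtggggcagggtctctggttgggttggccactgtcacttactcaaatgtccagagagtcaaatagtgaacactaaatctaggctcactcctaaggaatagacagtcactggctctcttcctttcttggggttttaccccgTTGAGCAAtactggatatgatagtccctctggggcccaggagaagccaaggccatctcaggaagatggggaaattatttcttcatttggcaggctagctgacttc
Ngp promoter (chr9:110419497-110419746, plus strand): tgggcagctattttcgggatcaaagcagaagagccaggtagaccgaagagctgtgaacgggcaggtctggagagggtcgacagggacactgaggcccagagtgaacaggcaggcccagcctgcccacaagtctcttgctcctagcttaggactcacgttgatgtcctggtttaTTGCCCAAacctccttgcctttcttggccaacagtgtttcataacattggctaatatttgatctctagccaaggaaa
Lcn2 promoter (chr2:32387798-32388047, minus strand): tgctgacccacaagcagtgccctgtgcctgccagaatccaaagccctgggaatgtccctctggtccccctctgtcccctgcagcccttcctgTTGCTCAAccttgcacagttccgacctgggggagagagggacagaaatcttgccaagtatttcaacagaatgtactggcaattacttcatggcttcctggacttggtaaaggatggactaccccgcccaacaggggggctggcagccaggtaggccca

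Next come 7 distal regions on which the accounts of the single genes turn: the tallest one, and regions that lay nearest to a granule gene. They are given 5′ to 3′ on the plus strand of mm10. Capitals mark bases that lay under a footprint, a short stretch with less cleavage than its surroundings, in at least 2 of the 3 libraries. The reference sequence is that of C57BL/6J, and differences carried by the CAST/EiJ copy are not shown.
Tallest region of the Mpo window (chr11:87755421-87755660): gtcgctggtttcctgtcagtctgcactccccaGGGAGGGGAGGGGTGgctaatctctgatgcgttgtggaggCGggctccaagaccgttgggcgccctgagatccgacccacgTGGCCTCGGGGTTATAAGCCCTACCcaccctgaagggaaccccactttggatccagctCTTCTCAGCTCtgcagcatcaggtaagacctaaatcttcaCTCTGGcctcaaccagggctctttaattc
Intronic region of Mpo (chr11:87802681-87802880): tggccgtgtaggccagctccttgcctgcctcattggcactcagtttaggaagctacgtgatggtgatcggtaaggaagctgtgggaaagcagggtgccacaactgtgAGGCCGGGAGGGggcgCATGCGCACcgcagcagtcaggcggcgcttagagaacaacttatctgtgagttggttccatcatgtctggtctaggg
Region upstream of Elane (chr10:79883761-79883960): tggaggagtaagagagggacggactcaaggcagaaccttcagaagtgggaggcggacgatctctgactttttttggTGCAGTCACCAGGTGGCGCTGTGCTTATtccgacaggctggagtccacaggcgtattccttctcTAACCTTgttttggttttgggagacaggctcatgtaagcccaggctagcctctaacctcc
Region upstream of Ltf (chr9:110997361-110997540): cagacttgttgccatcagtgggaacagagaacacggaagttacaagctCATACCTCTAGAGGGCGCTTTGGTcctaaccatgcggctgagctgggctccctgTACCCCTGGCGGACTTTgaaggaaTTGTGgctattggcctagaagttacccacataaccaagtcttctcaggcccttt
Region upstream of Camp (chr9:109862501-109862720): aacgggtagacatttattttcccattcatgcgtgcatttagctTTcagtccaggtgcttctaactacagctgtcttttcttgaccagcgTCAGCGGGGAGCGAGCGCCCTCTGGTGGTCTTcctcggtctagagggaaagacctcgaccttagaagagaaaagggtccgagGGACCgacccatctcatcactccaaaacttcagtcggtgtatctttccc
Region upstream of Ngp (chr9:110411601-110411800): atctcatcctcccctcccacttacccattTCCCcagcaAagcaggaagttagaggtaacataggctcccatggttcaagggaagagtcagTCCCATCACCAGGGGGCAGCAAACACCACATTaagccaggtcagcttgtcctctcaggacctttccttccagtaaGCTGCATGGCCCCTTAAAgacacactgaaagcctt
Region upstream of Mmp9 (chr2:164943001-164943240): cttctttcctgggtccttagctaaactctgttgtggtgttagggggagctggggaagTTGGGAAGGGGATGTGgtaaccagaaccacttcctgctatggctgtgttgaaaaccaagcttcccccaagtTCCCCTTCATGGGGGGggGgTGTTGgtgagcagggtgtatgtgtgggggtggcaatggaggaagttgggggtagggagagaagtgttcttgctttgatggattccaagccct

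None of the 9 promoters was open in all 3 libraries. A promoter was called open in a library when a peak overlapped the window reaching 1 kb to each side of one of the gene's protein-coding TSSs. By that rule 50.5% of all 21851 genes were open in all 3 libraries and 44.1% in none. Mpo, Elane, Prtn3, Ctsg, Ltf, Ngp, Lcn2 and Mmp9 belonged to the latter, and Camp, the precursor of the antimicrobial peptide cathelicidin, had a peak in replicate 1 and in neither of the others. With a window of 2 kb the count in all 3 libraries was 1, since a peak lay 1.61, 1.6 and 1.61 kb from the TSS of Prtn3. In a bulk sample, a closed promoter in most cells with a few open ones cannot be told apart from a weak opening in all.

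The Camp peak was small. It spanned 175 bp (chr9:109849465-109849639) across the TSS and had a height of 0.322, a measure of cleavage density given by the authors, which put it at percentile 3.19 of all peaks of its library. It held 0 footprints and was absent from the authors' shorter, stricter peak list. In the file of false discovery rates (FDR), 126 bp of the Camp window had a value under 0.05 in replicate 1, the best being 0.0152. In the other 2 libraries, and in all 3 libraries for the other 8 genes, 0 bp of the promoter window reached that limit and 0 footprints lay in it. A window with no such base in any library was also the rule for closed promoters in general, at 96.7% of the 9630 genes with no promoter peak. These values are not separate evidence, since every peak of the longer list overlapped an interval with an FDR under 0.05. In the shorter list no peak had a best FDR above 0.000998, 0.000968 and 0.000985 in the 3 libraries. The best value at Camp was above these.

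The promoters shared a low CpG content. The ratio of observed to expected CpG, taken 500 bp to each side of the TSS, ran from 0.0872 for Lcn2 to 0.287 for Ngp, with a median of 0.178. The median was 0.571 over all genes, 0.744 over genes open in all 3 libraries and 0.222 over genes with no promoter peak. Of the 6794 genes whose ratio was no higher than that of Ngp, 9.71% were open in all 3 libraries. The 0 of 9 granule promoters open in all libraries is to be read against this share as well as against 50.5%.

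Distal peaks lay around 8 of the 9 genes in every library: Camp and 7 of the 8 with no promoter peak. A distal peak was one outside every protein-coding promoter window, and it was counted for a gene within 50 kb of the gene's most upstream protein-coding TSS. At least 1 distal peak in each library was found for 60.0% of all genes and for 40.4% of the 9630 genes with no promoter peak. The 9 genes had on average 5.78 distal peaks in replicate 1, 5.56 in replicate 2 and 6.56 in replicate 4, or 5.96 ± 0.525 (SD, n = 3). The mean was 2.40 ± 0.326 over all genes, 1.47 ± 0.207 over genes with no promoter peak and 3.18 ± 0.424 over genes open in all 3 libraries. Mpo alone contributed 13, 12 and 15 peaks, and without the 10.1 kb block upstream of it described below the mean of the 9 genes was 4.85 ± 0.421.

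In descending order of the mean count came Mpo, Mmp9, Prtn3 and Ltf, Elane, Ngp, Lcn2, Camp and Ctsg. Mpo (13.3 ± 1.53) lay above all others in every library. Mmp9 had 9, 7 and 9 peaks (8.33 ± 1.15), Prtn3 6, 7 and 8 (7 ± 1), Ltf 7 in each library and Elane 6, 6 and 8 (6.67 ± 1.15), and the ranges of these 4 genes overlapped. Ngp followed with 5, 4 and 5 peaks (4.67 ± 0.577), Lcn2 with 3, 4 and 4 (3.67 ± 0.577) and Camp with 3 in each library, so that Ngp and Lcn2 shared the value 4 and Lcn2 and Camp the value 3. Ctsg had 0 in all 3. As many distal peaks as at Mpo were found around 0.682% of all genes, as many as at Mmp9 around 4.70%, and as many as at Camp around 32.9%.

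**Figure D1:**
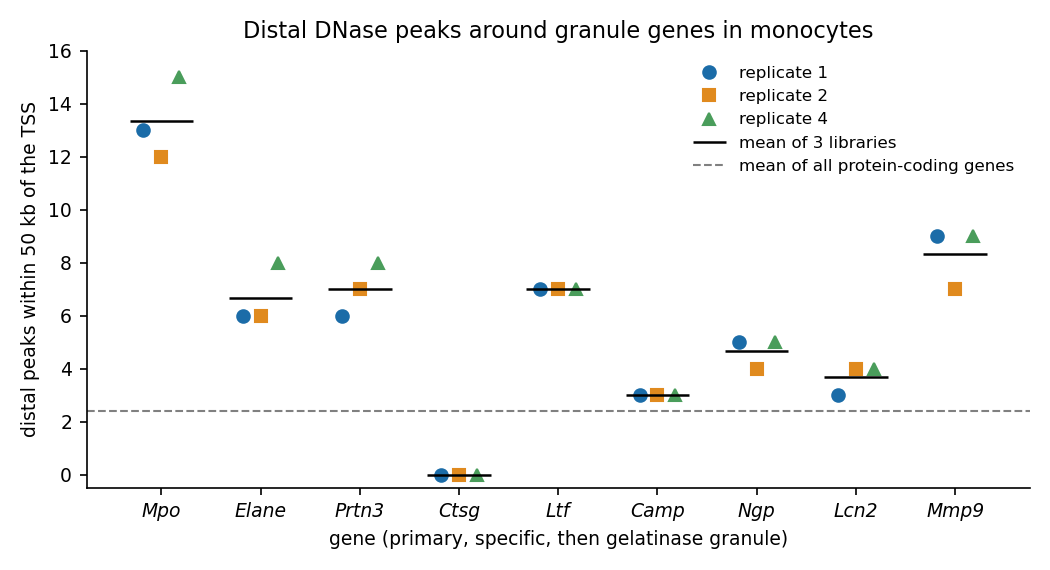
Number of distal DNase peaks within 50 kb of the TSS (vertical axis) for each granule gene (horizontal axis), with 1 point per library, a bar at the mean of the 3 libraries and a dashed line at the mean of all protein-coding genes (2.40). Mpo stands highest with 12 to 15 peaks, Ctsg has 0 in every library, and the other 7 genes lie between 3 and 9.

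Merged across libraries, the distal peaks formed 56 distinct regions, of which 39 (69.6%) were seen in 3 libraries, 9 in 2 and 8 in 1. Over the genome 48.1% of 43164 distal regions were seen in all 3. Introns held 25 of the regions, exons 6 and intergenic sequence 25. The nearest protein-coding TSS was that of the granule gene itself for 10 of the 56, and for 5 of the 39 seen in all libraries. Those 10 lay around Mpo (2), the neighbours Elane and Prtn3 (4) and Mmp9 (4). Ltf, Camp, Ngp and Lcn2 were the nearest gene to none of the regions counted for them. A region 13 kb from Camp was at the same rounded distance from the nearest gene, Cdc25a.

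**Figure D2:**
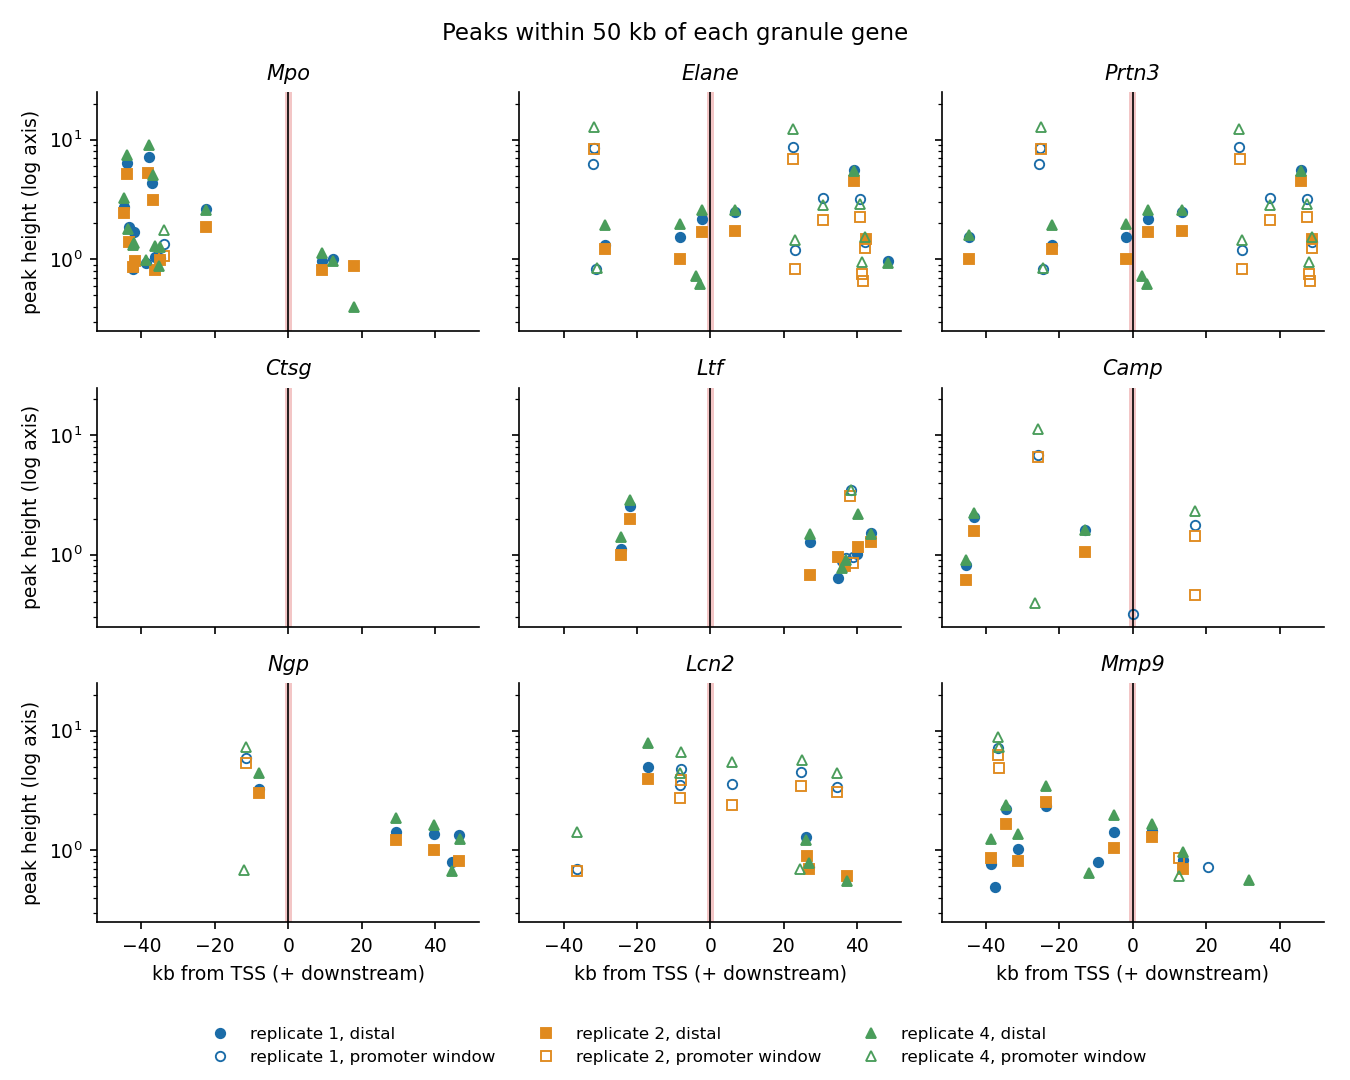
Height of every peak (vertical log axis, in the authors' units of cleavage density) against its distance in kb from the TSS of each granule gene, positive in the direction of transcription. Filled marks are distal peaks, open marks are peaks in the promoter window of any protein-coding gene, colours and shapes are the 3 libraries, and the shaded strip is the gene's own promoter window. The strip is empty in every panel but that of Camp, where 1 low open mark comes from replicate 1, and the panel of Ctsg holds no peak.

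Mpo encodes myeloperoxidase, the heme enzyme of primary granules that makes hypochlorous acid. The gene lies at chr11:87793581-87804413 on the plus strand (ENSMUSG00000009350.13), and 15 distal regions lay within 50 kb of its TSS. The nearest protein-coding gene was Tspoap1, whose product binds the mitochondrial translocator protein, for 11 of them, Mpo itself for 2, the lactoperoxidase gene Lpo for 1 and Supt4a for 1. Counting genes of every type, the nearest TSS was that of Mir142hg for 7, of Mir142b for 3, of Mir142 for 1, of an antisense gene, Gm11505, for 3 and of Tspoap1 for 1, so that Mpo was nearest to 0. Mir142hg is the host transcript of the blood-cell microRNA miR-142.

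The regions nearest to Mir142hg, Mir142 or Mir142b formed a block of 10.1 kb upstream of Mpo (chr11:87748741-87758838), with midpoints between −44.6 kb and −34.9 kb from its TSS. The block held 10, 9 and 11 of the Mpo peaks and left 3, 3 and 4 (3.33 ± 0.577). Its tallest region (chr11:87755421-87755660), printed first among the regions, lay at −38 kb from Mpo and 0.036 kb from the TSS of Mir142hg. Its height was 7.15 in replicate 1, 5.27 in replicate 2 and 8.92 in replicate 4 (7.11 ± 1.83), at percentiles 99.4, 98.9 and 99.3 of all distal peaks. It held 6, 5 and 4 footprints, and 59 of its 240 bases were footprinted in at least 2 libraries. Within the block, the region at −44 kb reached 6.31 ± 1.09 and that at −37 kb, in an intron of Mir142hg, 4.19 ± 0.989.

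Close to Mpo the signal was lower. The nearest region, in an intron of Mpo at 9.2 kb downstream of the TSS (chr11:87802681-87802880), had heights of 0.956, 0.816 and 1.13 (0.966 ± 0.156), at percentiles 60.7, 50.1 and 59.9 of distal peaks. It held 2 footprints in each library. In the tallest region of the block every library stood above every library of this one. Of the neighbouring promoters, that of Tspoap1 was open at heights of 1.34, 1.06 and 1.76, and that of Lpo was closed.

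Elane and Prtn3 encode neutrophil elastase and proteinase 3, serine proteases of the primary granules. Elane lies at chr10:79886247-79888215 (ENSMUSG00000020125.7) and Prtn3 at chr10:79874476-79883174 (ENSMUSG00000057729.12), both on the plus strand, with their TSSs 6.63 kb apart, and they shared 8 distal regions. Their counts are therefore not independent. The region closest to Elane was intergenic, between the genes, at −2.39 kb from the Elane TSS (chr10:79883761-79883960). It had heights of 2.15, 1.69 and 2.59 (2.14 ± 0.447), at percentiles 89.6, 84.7 and 88.3. The region closest to Prtn3 lay at −1.71 kb from its coding TSS, within an intron of the longer gene record (chr10:79877801-79878011), with heights of 1.53, 1.01 and 1.97 (1.5 ± 0.479). It held 1, 1 and 0 footprints, and no base in it was footprinted in all 3 libraries.

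The tallest distal region shared by Elane and Prtn3 (chr10:79925361-79925600) lay 1.56 kb from the TSS of Arid3a, which encodes an AT-rich DNA-binding protein. Its heights were 5.60, 4.48 and 5.50 (5.19 ± 0.619). Another (chr10:79892841-79893040), 2.09 kb from Cfd, the complement factor D gene, reached 2.47, 1.72 and 2.57 (2.26 ± 0.467). Of the protein-coding genes around the pair, the promoters of Ptbp1, Med16, R3hdm4, Kiss1r and Arid3a were open in all 3 libraries, and those of Plppr3, Cfd and Gm26602 were closed. The closed genes lie between Ptbp1 and Med16, with the exception of Gm26602, whose TSS is 24.6 kb downstream of that of Elane. R3hdm4 and Kiss1r shared 1 promoter peak.

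Ctsg, the gene of cathepsin G, a primary granule protease, differed from the other 8. It lies at chr14:56099881-56102574 on the minus strand (ENSMUSG00000040314.2), in a cluster of protease genes. The nearest peak of any kind was 75.2 kb away in replicate 1, 102 kb in replicate 2 and 75.2 kb in replicate 4. Its neighbours Mcpt4 and Mcpt8, proteases of mast cells and basophils, and the granzyme genes Gzme and Gzmd were all closed too. No difference between this locus and a wholly inaccessible one was detectable within 50 kb.

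Ltf encodes lactoferrin, the iron-binding protein of specific granules, at chr9:111019271-111042767 on the plus strand (ENSMUSG00000032496.7). It had 8 distal regions, and its nearest peak was 21.7, 21.7 and 21.8 kb away. Ccrl2, an atypical chemokine receptor gene, was the nearest protein-coding gene to 6 of them and Rtp3 to 2. The region closest to Ltf, at −21.8 kb (chr9:110997361-110997540) in an intron of Gm10030, had heights of 2.53, 1.97 and 2.87 (2.46 ± 0.456). All 3 values exceeded those of the other 7 regions in the same library. The Ccrl2 promoter was open at 3.45, 3.10 and 3.45, and that of Rtp3 was closed.

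Camp lies at chr9:109847379-109849617 on the minus strand (ENSMUSG00000038357.10). All 3 of its distal regions were nearest to Cdc25a, a cell cycle phosphatase gene, and were seen in every library. For the region closest to Camp this was nearly a tie, with a rounded distance of 13 kb to either TSS. The one closest to Camp was intergenic at −13 kb (chr9:109862501-109862720), with heights of 1.62, 1.06 and 1.62 (1.43 ± 0.325) and 3 footprints in each library. In replicate 1 it stood above the Camp promoter peak (0.322). The promoters of Cdc25a and Nme6 were open, and that of Spink8 was closed.

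Ngp encodes neutrophilic granule protein, a relative of the cystatins, at chr9:110419747-110423012 on the plus strand (ENSMUSG00000032484.8). Klhl18 was the nearest protein-coding gene to 4 of its 5 regions. The other, intergenic at −8.05 kb (chr9:110411601-110411800) and nearest to the phosphatase gene Ptpn23, was the tallest. Its heights were 3.28, 3.01 and 4.41 (3.57 ± 0.739), at percentiles 95.8, 95.6 and 95.9, with 3 footprints in each library. The next tallest, at 29.3 kb downstream, reached 1.43, 1.21 and 1.88 (1.51 ± 0.341), below the first in every library. Both neighbouring promoters, Ptpn23 and Klhl18, were open.

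Lcn2 encodes lipocalin 2, which binds bacterial siderophores, at chr2:32384633-32388252 on the minus strand (ENSMUSG00000026822.14). The promoters of all 5 of its neighbours were open, and the peak nearest to Lcn2, 5.70, 5.68 and 5.72 kb away, was the promoter peak of 1110008P14Rik. Of its 4 distal regions 3 were nearest to Ciz1 and 1 to Ptges2, the prostaglandin E synthase 2 gene. The last, in an exon of Ptges2 at −17.1 kb (chr2:32404821-32404980), had heights of 5, 3.95 and 7.85 (5.60 ± 2.02). Its percentiles among distal peaks were 98.5, 97.7 and 98.9. The other 3 lay at 1.30 or less in every library.

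Mmp9 encodes gelatinase B, a matrix metalloproteinase of the gelatinase granules, at chr2:164940780-164955850 on the plus strand (ENSMUSG00000017737.2). It had 11 distal regions, of which the zinc finger gene Zfp335 was nearest to 5, Mmp9 to 4 and the cotransporter gene Slc12a5 to 2. A region at −5.10 kb (chr2:164943001-164943240), inside the gene record but upstream of the coding TSS, had heights of 1.43, 1.05 and 1.98 (1.48 ± 0.470). Another, in an intron at 5.22 kb downstream (chr2:164953341-164953540), had heights of 1.46, 1.29 and 1.65 (1.47 ± 0.176). The regions at −5.10 and 5.22 kb did not differ beyond their spread. Taller than both was an intergenic region at −23.5 kb (chr2:164924581-164924760), nearest to Zfp335, with heights of 2.33, 2.54 and 3.45 (2.78 ± 0.595). It was the tallest distal region of Mmp9 in every library. By the rule both genes beside Mmp9 were open, Zfp335 at 7.23, 6.23 and 8.91 and Slc12a5 at 0.726, 0.869 and 0.606. The Slc12a5 peak lay 20.5 kb from the Mmp9 TSS in replicate 1 and 12.6 kb from it in replicates 2 and 4. No single start site of Slc12a5 thus had a peak in all 3 libraries.

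Counted over the 9 genes, 30 distinct neighbouring protein-coding genes were examined, of which 18 were open in every library and 12 in none. Over all protein-coding genes the shares were 50.5% open in every library and 44.1% in none. These 12 include granule genes themselves, since Elane and Prtn3 are neighbours. Within 5 kb of the TSS, regions seen in all 3 libraries were found at Elane (1) and Prtn3 (2). Within 10 kb there were 3 at Elane, 2 at Prtn3, 2 at Mmp9, 1 at Mpo and 1 at Ngp, and 0 at Ctsg, Ltf, Camp and Lcn2. The Elane region within 5 kb is also counted for Prtn3, and within 10 kb both Prtn3 regions are also counted for Elane.

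The distal peaks around the granule genes had a higher median than those of the genome at large. Their number was 47 in replicate 1, 44 in replicate 2 and 52 in replicate 4, and their median height 1.38, 1.05 and 1.44. The medians over all distal peaks were 0.792, 0.816 and 0.941, so that the granule medians stood at percentiles 76.9, 65.5 and 70.7. The peaks ran from 0.495 to 7.15, from 0.612 to 5.27 and from 0.396 to 8.92. A total of 6 regions reached the 95th percentile in all 3 libraries: the regions of Mpo at −44, −38 and −37 kb, that of Ngp at −8.05 kb, that of Lcn2 at −17.1 kb and that near Arid3a. All 6 were nearer to the TSS of another gene than to that of the granule gene. Replicate 4 was the tallest library in 32 of the 39 regions seen in all libraries and replicate 2 the lowest in 35. The scale of the height between libraries is not stated by the authors.

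**Figure D3:**
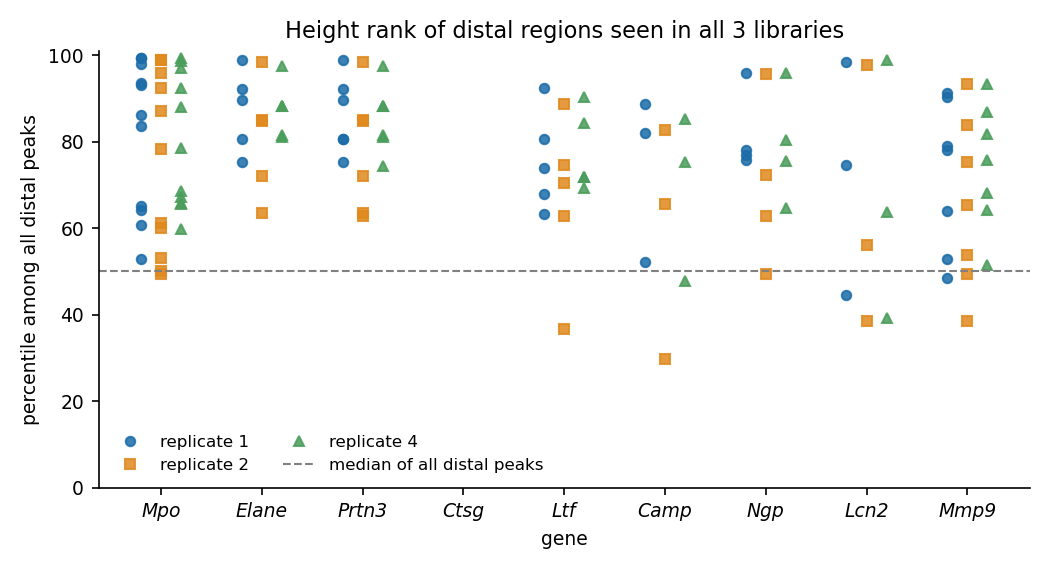
Percentile of each distal region's height among all distal peaks of the same library (vertical axis), for regions seen in all 3 libraries, by granule gene (horizontal axis), with 1 mark per region and library and a dashed line at the median of all distal peaks. Regions of Mpo, Elane, Prtn3, Ngp and Lcn2 reach percentiles above 95 in every library, whereas Ctsg has no region; the regions drawn for Elane and Prtn3 are largely the same ones.

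Footprints were found in 89.4%, 84.1% and 82.7% of these distal peaks, against 82.3%, 80.4% and 77.7% of all distal peaks. The number per peak was 2.28, 1.75 and 2.02, against 1.98, 1.83 and 1.78 in the genome. In replicate 2 the granule peaks thus held fewer per peak than the genome, and in the other libraries more. In all they held 107, 77 and 105 footprints (96.3 ± 16.8).

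The promoters of the 9 genes were searched for consensus letters, with no test of a difference between granule classes. Only exact matches to the letters were counted, so a promoter without a match may still hold sites that depart from them. The C/EBP consensus, searched on both strands of the 250 bases, was found at Ltf, Camp, Ngp, Lcn2 and Mmp9, and at none of the 4 primary granule genes. It was found in 9.05% of all 21851 promoters. The PU.1 and ETS consensus was found at Mpo, Elane, Prtn3, Ctsg and Ltf, and in 19.2% of all promoters. Ltf was the only promoter of the 9 with both. The PU.1 and ETS match lies at bases −20 to −14 from the TSS of Mpo, −19 to −13 of Elane and −41 to −35 of Prtn3. It lies farther from the TSS at Ctsg (−206 to −200) and at Ltf (−193 to −187). On the strand of the gene it reads AGGAAGT at the 4 primary granule genes and AGGAAAT at Ltf. The C/EBP match lies at −54 to −47 of Ltf, −105 to −98 of Camp and −77 to −70 of Ngp. At Lcn2 it lies at −158 to −151 and at Mmp9 at −230 to −223. The promoters of Ctsg and Mmp9 are not printed.

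RUNX matches were found at Mpo and Mmp9 (4.18% of all promoters) and a MYB match at Mpo (18.3%). The GFI1 consensus (AAATCNC) was found at Ltf and Mmp9 (10.6%), that of IRF (GAAANNGAA) at Mpo and Ctsg (7.19%), that of AP-1 (TGANTCA) at Mmp9 (5.89%) and that of KLF and SP factors (GGGNGTGG) at Ctsg (17.1%). The IRF match of Ctsg overlaps its PU.1 and ETS match, and the GFI1 match of Ltf overlaps its PU.1 and ETS match. None held the NF-kappaB consensus GGGANTTTC (0.975%) or that of CTCF, the insulator protein (1.36%). Since 0 footprints lay in these windows, the matches are descriptions of reference sequence with no occupancy measured at them.

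**Figure D4:**
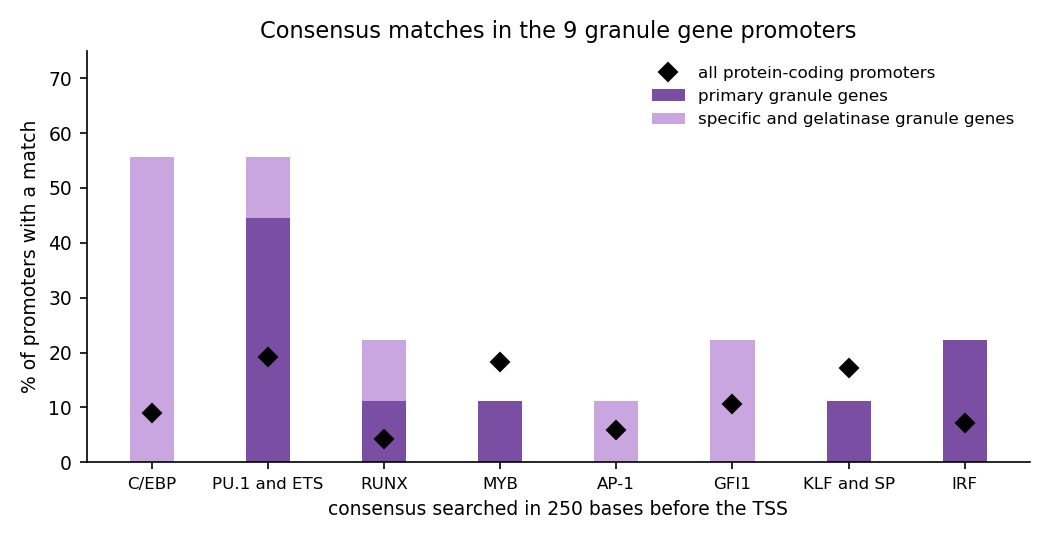
Percentage of promoters with at least 1 match to each consensus (vertical axis) in the 250 bases before the TSS, with stacked bars for the 9 granule genes, split into the 4 primary granule genes and the 5 others, and diamonds for all 21851 protein-coding promoters (9.05% for C/EBP and 19.2% for PU.1 and ETS). The C/EBP bar consists of specific and gelatinase granule genes, and the PU.1 and ETS bar of the 4 primary granule genes and Ltf.

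The distal regions were searched in the same way. In windows of 200 bp on the 39 regions seen in all libraries, the C/EBP consensus was found in 3 (7.69%, against 11.6% of 20762 such regions), that of PU.1 and ETS in 9 (23.1% against 30.8%), that of MYB in 6 (15.4% against 17.5%) and that of RUNX in 2 (5.13% against 7.18%). AP-1 was matched in 2 (5.13% against 10.4%), KLF and SP in 4 (10.3% against 10%), IRF in 2 (5.13% against 6.88%), GFI1 in 1 (2.56% against 7.07%) and NF-kappaB in 0 (against 1.06%). The CTCF consensus was matched in 5 (12.8% against 14.7%). A shorter form of it, the 12-base core with its least constrained positions freed, was matched in 11 (28.2% against 19.5%). That form was chosen after the sequences had been read.

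The full CTCF consensus was matched in the region closest to the TSS for 2 of the 8 genes with distal peaks, Ltf and Camp. Of the 20762 distal regions seen in all libraries, 14.7% held it in their 200 bp window. The closest regions were searched over their whole length, 160 to 240 bp, so the shares are not of like windows. The core was matched for 5 of the 8 (19.5% of the 20762 windows). Since that form was set after these sequences had been read, its count is a description only. The matches were caccaggtggcg at Elane (chr10:79883843-79883854), ctctagagggcg at Ltf (chr9:110997414-110997425), cgccctctggtg, on the other strand, at Camp (chr9:109862605-109862616), caccagggggca at Ngp (chr9:110411697-110411708) and caccaggaggca at Lcn2 (chr2:32404857-32404868). All 5 lay wholly under bases footprinted in at least 2 libraries, as the capitals of the printed regions show for the first 4. This too is a description only, since the form was set after reading and no such share was taken over all regions. Matches to PU.1 and ETS in the closest regions had 2 of 7 bases under footprints at Ltf and 0 of 7 at Ngp and Mmp9. The KLF and SP match at Mmp9 had 0 of 8. The regions closest to Mpo, Prtn3 and Mmp9 held no match to this core.

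Some other granule genes had open promoters. Of 34 further genes of granule or cytosolic proteins, 14 were open in every library, 5 in 1 or 2 and 15 in none. Their mean was 3.42 ± 0.559 distal peaks. By compartment the promoter was open in all libraries for 6 of 9 primary, 5 of 14 specific and 2 of 7 gelatinase granule genes and 1 of 4 genes of cytosolic proteins. The share open among all genes was 50.5%, as above, and was not matched for CpG content. Among those open were Srgn, the proteoglycan that packs granule proteases (4.88, 3.38 and 5.59), Ctsc, the protease that activates them (5.70, 4.00 and 6.87), Cyba, a subunit of the NADPH oxidase (4.45, 3 and 5.04), and, at lower heights, the collagenase gene Mmp8 (0.651, 0.470 and 0.557). Srgn had 11, 12 and 9 distal peaks (10.7 ± 1.53), and Itgam, the integrin subunit of Mac-1, had 19, 5 and 7, a mean that replicate 1 set. Closed promoters were found at Cd177, Ceacam10, Cd63 and Chil3 in all 3 libraries. By the same rule Cybb, a specific granule gene of the list like Cyba, was also closed. S100a8 was open (0.841, 0.745 and 0.99) and its partner S100a9 was not, and Padi4, which citrullinates histones, was closed with 12, 5 and 11 distal peaks around it.

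Of 12 regulators of granule genes, 10 were open in every library, and Gfi1 and Myb in 2, where 50.5% of all genes were open in every library. Their mean was 6.44 ± 0.891 distal peaks, against 2.40 ± 0.326 over all genes. The share of 50.5% was not matched for CpG content. The median CpG ratio was 0.744 over genes open in every library and 0.222 over genes with no promoter peak. Cebpb had 22, 17 and 20 (19.7 ± 2.52), Spi1, the gene of PU.1, 12 in each library, Runx1 8, 6 and 10 (8 ± 2) and Cebpa 11, 6 and 6 (7.67 ± 2.89). Cebpe, the factor most tied to specific granules, was open at low heights of 0.561, 0.612 and 0.743, where Cebpa had 10.8, 9.65 and 15.4. Every library of Cebpa stood above every library of Cebpe.

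Across the libraries, 54046, 42657 and 48980 peaks had been called. Monocyte markers were open in all 3 libraries for 7 of 10 genes, among them Csf1r, Cx3cr1 and Cd14, with 8.83 ± 1.31 distal peaks, beside 50.5% open and 2.40 ± 0.326 distal peaks over all genes, while Ccr2 was closed and Ly6c2 was open in 1 library. Of 10 neutrophil markers, 5 were open in all 3 libraries (Csf3r, S100a8, Cebpe, Mmp8 and Mxd1), Cxcr2 in 1, and Ly6g, Retnlg, Cxcr1 and S100a9 in none, so that the share open was near that of all genes (50.5%). The count was 1 of 8 for T cells, 1 of 6 for B cells, 0 of 6 for natural killer cells and 0 of 7 for eosinophils, mast cells and basophils. For granulocyte-monocyte progenitors, a list that includes 4 of the granule genes, it was 1 of 8. No marker list was set beside genes of like CpG content. Whether other cells in the preparation added to the peaks around the granule genes was not tested.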

How the data were processed

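DNase-seq of 3 monocyte libraries was used as deposited. Per the labels, files were aligned to mm10 and made per library; no aligner, peak caller or footprint program is given in the sources used here. For every library 2 peak lists were deposited, with 1 height per peak, a signal of cleavage density in whole multiples of 1 step (0.00825, 0.00887 and 0.0124), whose scale the authors do not state. The longer list was used (54046, 42657 and 48980 peaks), with the shorter one as an alternative. A deposited file gave intervals with an FDR, a p-value kind of measure by the authors, under 0.05. All footprints deposited have the value 0.01 of the p-value kind, so only their positions were used.

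TSSs came from GENCODE M21 (basic set, 41438 coding TSSs, 21851 genes), and sequence from GRCm38.p6. Overlaps were of at least 1 bp. Depth was not in the files used, so no interval is given. Counts used Python 3.11.15, numpy 2.4.6, pandas 2.3.3 and pysam 0.24.0, and the overlap code was tested on simulated data. All 9 genes are named; of the other lists, every member was counted, and up to 4 with the most distal peaks and up to 4 without a promoter peak, in alphabetical order, were to be named. Further list genes were named after their values were seen. Members and lists were chosen with earlier results of these data known. Alternatives were the shorter list, taller peaks, other windows, TSS sets and overlaps, and leaving out each library.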

Additional observations from a re-analysis of the deposited data

How the results depend on the processing

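The count of open granule promoters stayed at 0 under every alternative but a promoter window of 2 kb, which gave 1, Prtn3. The taller 50% of peaks, a window of 500 bp and counting peaks by midpoint can only remove promoter peaks, so they could not raise the count. Leaving out a library could not raise it either, since only Camp had a promoter peak, in 1 library. The shorter list is the stricter of the lists. The 0 under these alternatives is therefore no added support. The mean of 5.96 distal peaks per gene became 4.52 with the shorter peak list, 4.26 with the taller 50% of peaks, 2.37 within 25 kb and 9.37 within 100 kb. It became 4.85 without the regions nearest to Mir142hg, Mir142 or Mir142b, an alternative chosen after seeing the data that took Mpo from 13.3 to 3.33. The 56 distinct regions became 44 with the shorter list, 39 with the taller 50%, 21 within 25 kb and 86 within 100 kb. Regions nearest to their own granule gene, 10 at first, became 6 with the shorter list and 6 with the taller 50%. Leaving out each library in turn gave 5.67 to 6.17 distal peaks per gene, 51 to 55 regions, 91 to 106 footprints and 7 to 10 regions nearest to their own gene. Of 44 such values over all 9 genes under an alternative, 34 stayed close to the first value (counts within 1.5 times it, means within 1 SD). These include the counts of open promoters that could not have risen. Of 73 values for single genes, 42 moved by less than 1 SD, 22 were lower and 9 higher. No paired analysis was possible because the libraries form 1 group. Library depth is unknown, so a promoter without a peak was not detected as open in these files and is not shown to be fully closed.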
